A study of Mus musculus with 3 samples.

Results

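The genes described here are 10 mouse genes of protein folding in the endoplasmic reticulum (ER): Hspa5, Hsp90b1, Xbp1, Calr, Canx, Pdia4, Herpud1, Sdf2l1, Manf and Creld2. They were taken by name from the authors' gene table of 24401 loci, each symbol matched 1 locus, and all 10 passed the level filter of a mean of 1 FPKM (fragments scaled by transcript length and by the mapped fragments of the library). RNA had been sequenced from C2C12 myotubes, cultured muscle fibres of a mouse cell line whose labelled cell type is myoblast, after 72 hours of differentiation with 2% horse serum and 1 µg/ml insulin. All 3 cultures were then treated for 24 hours: the control with DMEM, the second with medium conditioned for 24 hours by S2-013 cells, a human pancreatic cancer line, and the third with such conditioned medium plus 50 µM resveratrol, a plant polyphenol. Each group is 1 library, so no value has a replicate error, no test of the conditions was possible, and every difference is one between single libraries. Whether the control DMEM held as much serum as the conditioned medium is not known from the labels. A culture with resveratrol in DMEM alone was not analysed here, so resveratrol is described only within conditioned medium.

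Proteins that enter the secretory pathway fold in the ER lumen with the help of chaperones, lectins and disulfide isomerases. When unfolded proteins build up, the membrane sensors IRE1, PERK and ATF6 are activated. IRE1 cuts a short intron out of Xbp1 mRNA, so that the active transcription factor XBP1 is made, and XBP1 and cleaved ATF6 raise the transcription of chaperone and degradation genes through ER stress response elements (ERSE) in their promoters. PERK slows translation and induces ATF4 and CHOP. In muscle the same membrane system carries the sarcoplasmic reticulum calcium store, in which chaperones and calcium-binding proteins lie side by side. The deposited values are per gene and do not separate spliced from unspliced Xbp1 mRNA.

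The promoters of these genes were searched for elements of the ER stress response. RefSeq promoters on GRCm38.p6, from 250 bases before to 50 bases after the start site, were found for 9 of the 10 genes, Manf being the gene without an entry. The ERSE was searched on both strands as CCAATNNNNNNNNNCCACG and was present in 5 of the 9, against 39 of 32851 promoters in the whole RefSeq table (0.119%). The related ERSE-II, ATTGGNCCACG, was present in Herpud1 and in 12 of 32851 promoters (0.0365%). Below are the matches in their surroundings, 5′ to 3′ on the strand of the gene, with the element in capitals. Where the element lies on the opposite strand it reads from CGTGG to ATTGG.
Hspa5: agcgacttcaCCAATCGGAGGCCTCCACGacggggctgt
Hsp90b1: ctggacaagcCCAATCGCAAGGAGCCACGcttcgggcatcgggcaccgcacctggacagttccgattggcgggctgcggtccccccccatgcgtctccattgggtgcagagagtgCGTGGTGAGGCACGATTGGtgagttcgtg
Calr: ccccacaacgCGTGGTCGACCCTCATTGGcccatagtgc
Canx: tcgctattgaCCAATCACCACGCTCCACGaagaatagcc
Creld2: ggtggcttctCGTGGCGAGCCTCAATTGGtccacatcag
Herpud1: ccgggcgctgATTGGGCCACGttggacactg

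These stretches lie at chr2:34772015-34772053 on the plus strand (Hspa5), chr10:86705523-86705666 on the minus strand (Hsp90b1), chr8:84847065-84847103 on the minus strand (Calr), chr11:50325790-50325828 on the minus strand (Canx), chr15:88819510-88819548 on the plus strand (Creld2) and chr8:94386367-94386397 on the plus strand (Herpud1). Counted from the start site as position 0, the Hspa5 element spans -65 to -47, the Calr element -162 to -144, the Canx element -145 to -127 and the Creld2 element -126 to -108. Hsp90b1 has 2 elements, from -212 to -194 and from -107 to -89, and the ERSE-II of Herpud1 spans -52 to -42. The 5-base end of the element, CCACG, was in 8 of 9 promoters and in 32.8% of all promoters. It is part of every ERSE and ERSE-II match. The 8-base core of the unfolded protein response element, TGACGTGG, was in 0 of 9 and in 0.676% of all. A match describes letters in this window and does not show that a factor binds there. An element outside the window, or with 1 letter changed, is not counted.

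**Figure D1:**
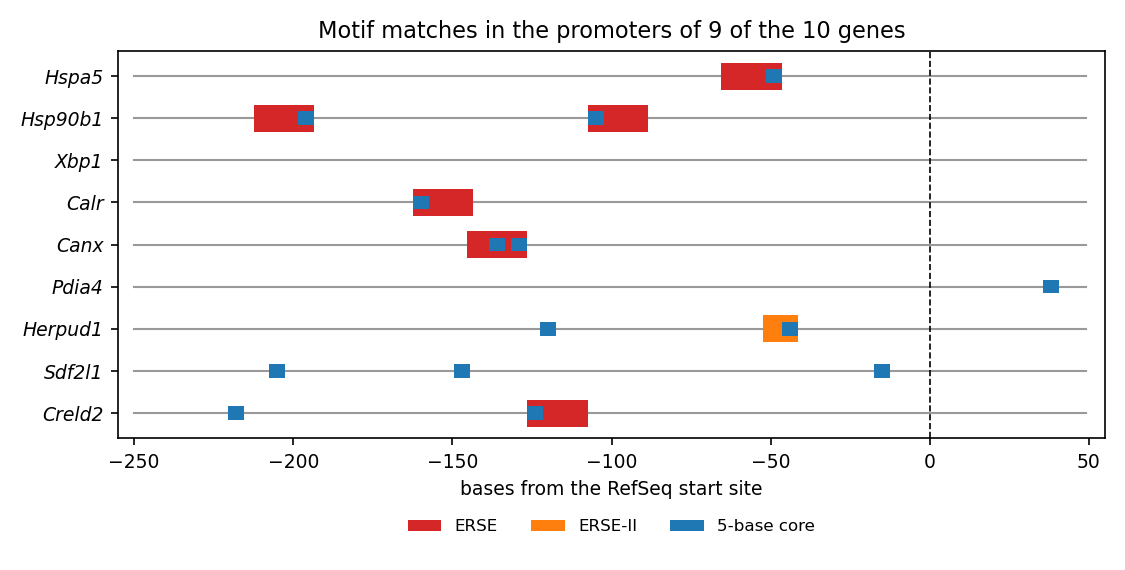
Positions of exact motif matches in the RefSeq promoters of 9 genes, with bases from the start site on the horizontal axis, 1 line per gene, red for ERSE, orange for ERSE-II and blue for the 5-base end of the element. 5 genes carry an ERSE, Hsp90b1 carries 2, and Xbp1 has no match in this window.

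On mm10 the deposited loci are Hspa5 (chromosome 2, 34772090 to 34776529), Hsp90b1 (chromosome 10, 86690796 to 86705529), Xbp1 (chromosome 11, 5520641 to 5525993), Calr (chromosome 8, 84842088 to 84846931), Canx (chromosome 11, 50293957 to 50325673), Pdia4 (chromosome 6, 47796141 to 47813512), Herpud1 (chromosome 8, 94386500 to 94395358), Sdf2l1 (chromosome 16, 17130138 to 17132383), Manf (chromosome 9, 106821926 to 106891958) and Creld2 (chromosome 15, 88819646 to 88826681). GENCODE M21, on the same build, lists each as protein coding. Levels of the 10 genes spanned a 40.4-fold range in the control library. FPKM is per length of transcript, so levels can be compared between genes. The order by mean FPKM was Calr (493), Hspa5 (460.4), Hsp90b1 (394.5), Canx (169), Manf (89.3), Herpud1 (87.9), Pdia4 (74.6), Xbp1 (73.3), Creld2 (31.97) and Sdf2l1 (13.5). Without replicates it cannot be said which neighbours in this order differ, and the range of Hspa5 over the 3 libraries overlaps those of Calr and Hsp90b1, as do the ranges of neighbours from Manf to Xbp1. Calr, the most abundant, was exceeded by 1.74% of the 11858 loci that passed the filter, and Sdf2l1 by 49.2%. The 10 genes summed to 1758 FPKM in control, 1764 FPKM in conditioned media and 2141 FPKM with resveratrol.

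**Figure D2:**
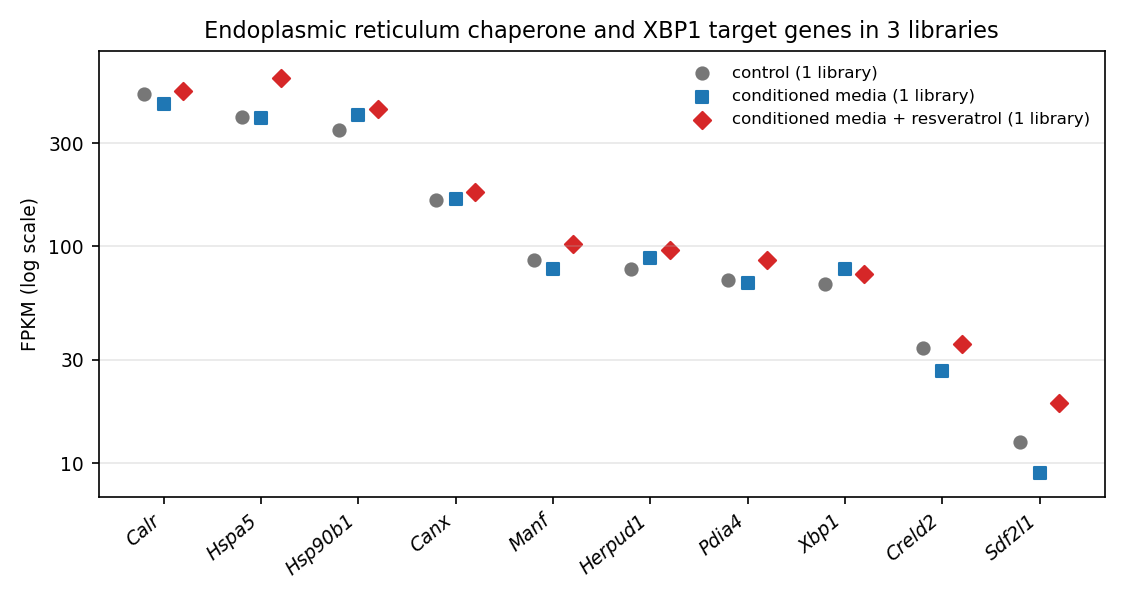
FPKM of the 10 genes on a log axis, ordered by mean level, 1 point per library (grey circle control, blue square conditioned media, red diamond conditioned media with resveratrol). The resveratrol library is the highest for 9 of 10 genes, Xbp1 being the exception, and the conditioned media library is the lowest for 6.

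Hspa5 encodes BiP, the ER member of the HSP70 family, which holds unfolded chains and keeps the stress sensors inactive. It stood at 394 FPKM in control, 391 FPKM in conditioned media and 596 FPKM in conditioned media with resveratrol. In deposited FPKM the first pair lay almost level and the resveratrol library stood apart, while with FPKM rescaled to TPM over all loci the log2 ratio of conditioned media over control was 0.18. The FPKM ratio of resveratrol over conditioned media was 1.53, a log2 ratio of 0.61, and 6.98% of loci had a higher one. All log2 ratios here are of FPKM + 1, which understates the differences of low genes. The authors' deposited table calls this difference and that from control (q 0.000148 for each), and does not call conditioned media against control (q 0.575).

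Hsp90b1 encodes the ER member of the HSP90 family, which folds integrins and Toll-like receptors among other clients. It stood at 346 FPKM in control, 406 FPKM in conditioned media and 432 FPKM with resveratrol. Here most of the difference lay between control and conditioned media (log2 ratio 0.23), with 0.091 between resveratrol and conditioned media. The authors' deposited table calls all 3 comparisons. GENCODE M21 places a predicted miRNA gene, Gm25745, and a processed transcript, Gm15344, on the same strand within Hsp90b1. A transcribed pseudogene, 1810014B01Rik, overlaps Hsp90b1 on the opposite strand, and whether reads were counted by strand is not given.

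The lectin chaperones Calr and Canx hold newly made glycoproteins, the first in the lumen and the second in the membrane. Calr also buffers ER calcium. It stood at 505 FPKM in control, 453 FPKM in conditioned media and 522 FPKM with resveratrol, so that in deposited FPKM the conditioned media library was the low one. Canx stood at 164, 166 and 177 FPKM in the same order of libraries, relative to its level the narrowest range of the 10 genes, and yet the authors' deposited table calls the log2 fold change of 0.098 between resveratrol and conditioned media (q 0.000148). For abundant transcripts a call in that table can therefore rest on a difference of a few percent between libraries.

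Pdia4 encodes a disulfide isomerase of the lumen. Its values were 70.0 FPKM in control, 67.5 FPKM in conditioned media and 86.3 FPKM with resveratrol, the last standing apart with a log2 ratio over conditioned media of 0.35. The gene holds Mir704 on its own strand.

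Sdf2l1, a lumenal partner of BiP and its cochaperones, had the largest relative difference of the 10. It was the least abundant, at 12.5 FPKM in control, 8.999 FPKM in conditioned media and 19.0 FPKM with resveratrol. The 3 libraries lay well apart, with conditioned media lowest. The FPKM ratio of resveratrol over conditioned media was 2.11, and the log2 ratio of 0.999 was exceeded by 1.55% of loci. A locus passed the size rule used here when its log2 ratio was at least 1 in either direction. The value of Sdf2l1 falls just short of it, and passes at a pseudocount of 0.1 FPKM (log2 ratio 1.07).

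Creld2 and Manf are secreted or lumenal proteins known as ER stress-inducible genes. Creld2, a proposed disulfide isomerase, stood at 33.8 FPKM in control, 26.7 FPKM in conditioned media and 35.3 FPKM with resveratrol. Manf, a BiP cofactor that is also released from stressed cells, stood at 86.6, 79.0 and 102 FPKM in that order. In deposited FPKM both were lowest in conditioned media and highest with resveratrol, and their log2 ratios of resveratrol over conditioned media were 0.39 and 0.37. For neither does the authors' deposited table call resveratrol against control (q 0.468 for Creld2 and 0.051 for Manf). The Manf locus overlaps the loci of Rbm15b and Vprbp in that table, so its value is less certain.

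Herpud1 encodes a membrane protein that gathers the machinery of ER-associated degradation. It stood at 78.7 FPKM in control, 88.3 FPKM in conditioned media and 96.8 FPKM with resveratrol, with control the lowest. An antisense gene, Gm15890, overlaps it, and the sources used here do not give whether reads were counted by strand.

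Xbp1 encodes the transcription factor itself. It stood at 67.1 FPKM in control, 78.6 FPKM in conditioned media and 74.4 FPKM with resveratrol, and was the only 1 of the 10 genes that was lower with resveratrol than without it (log2 ratio -0.078, not called in the authors' deposited table, q 0.0833). The authors' deposited table calls it higher in conditioned media than in control (log2 fold change 0.23, q 0.000148) and higher with resveratrol than in control (0.15, q 0.000801).

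Conditioned media against control asks what the cancer cell medium changed in the myotubes. The 10 genes were divided, with 4 log2 ratios above 0 and 6 below and a median of -0.032, beside -0.011 over all 11858 loci, of which 48.7% were above 0. None of the 10 passed the size rule, which 2.73% of all loci passed in either direction. The authors' deposited table calls 3 higher, Hsp90b1, Xbp1 and Herpud1, and 3 lower, Calr, Sdf2l1 and Creld2. Over all tested loci it calls 25.8% higher and 29.9% lower, so that the counts of 3 and 3 lie close to this background. The split depends on scaling: with FPKM rescaled to TPM over all loci, which moves the median of all loci to 0.14, 8 of 10 ratios were above 0, and those of Hspa5 (0.18), Pdia4 (0.14), Manf (0.062) and Calr (0.041) had turned above 0. With TPM over loci longer than 200 bases 3 of 10 were above 0, and Canx turned from 0.012 to -0.077.

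Resveratrol in conditioned media against conditioned media alone asks what the polyphenol changed there. Of the 10 genes, 9 were higher with resveratrol, with a median log2 ratio of 0.28 beside 0.025 over all loci, of which 52.5% were above 0. The authors' deposited table calls 9 higher and 0 lower. Over all tested loci these shares are 34.1% and 29.5%. The table calls more among abundant genes, and among 5814 loci at or above the mean level of Sdf2l1 it calls 39.3% higher. None of the 10 passed the size rule, which 6.50% of all loci passed in either direction. Of the 11858 loci, 182 passed it as higher and 589 as lower. The count of 9 above 0 was the same with TPM over loci longer than 200 bases. That scaling took the smallest of these ratios, that of Hsp90b1, from 0.091 to 0.029. TPM over all loci left Hsp90b1 at 0.089, and centring on the median of all loci takes only 0.025 from each ratio. Both shifts are too small to change the count. Pseudocounts and filters could not change it, since a pseudocount keeps the sign of a ratio and all 10 genes passed each filter. The median ranged from 0.22 to 0.28 over the settings tried.

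**Figure D3:**
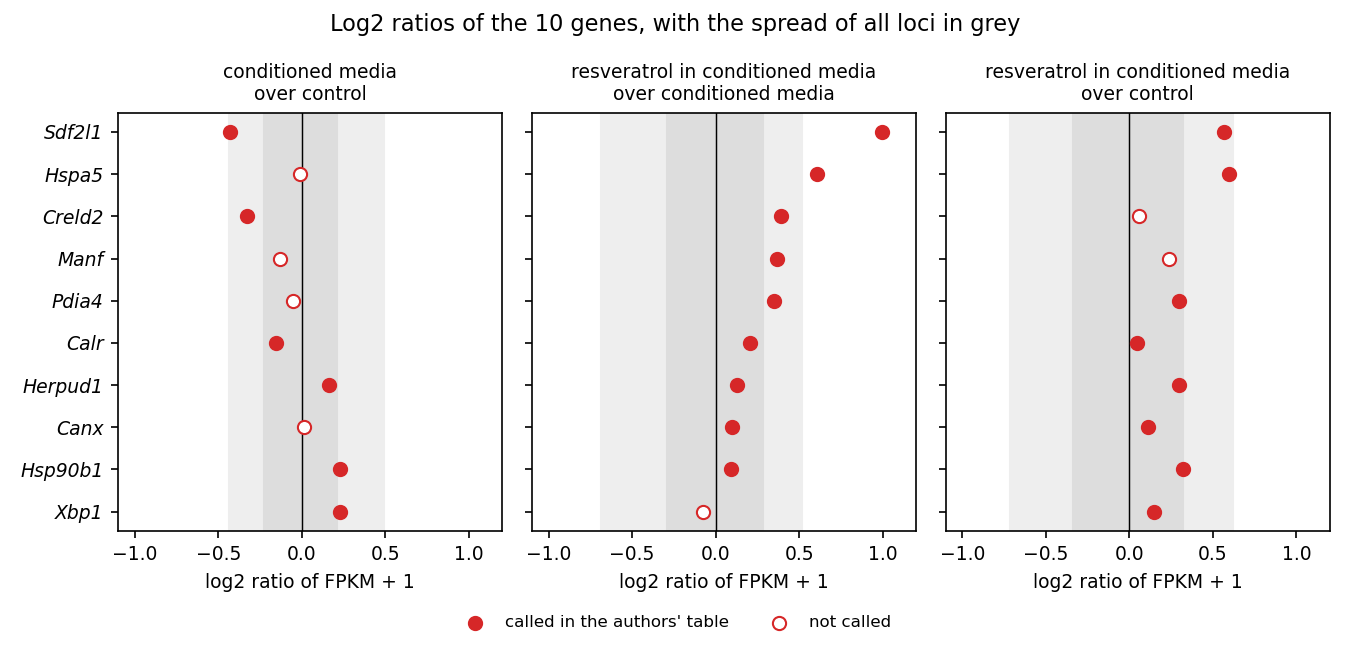
Log2 ratios of FPKM + 1 for the 10 genes in the 3 comparisons, filled where the authors' deposited table calls the difference, with the central 50% of all loci in dark grey and the central 80% in light grey. In the middle panel Sdf2l1 (0.999) and Hspa5 (0.61) lie beyond the central 80%, while all 10 genes lie inside it in the left panel.

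Resveratrol in conditioned media against DMEM control, which shares a library with each comparison above, gave 10 ratios above 0 with a median of 0.27, beside 0.00021 over all loci. Hspa5 had 596 against 394 FPKM (log2 ratio 0.60) and Sdf2l1 19.0 against 12.5 FPKM (0.57), while Calr (0.048) and Creld2 (0.060) were nearly level. The authors' deposited table calls 8 higher, all but Manf and Creld2, and 0 lower, where it calls 34.1% of tested loci in each direction. None passed the size rule, which 8.85% of all loci passed, 427 as higher and 622 as lower. Rescaled to TPM over loci longer than 200 bases, 6 of 10 ratios were above 0, and those of Xbp1 (-0.0014), Calr (-0.10), Canx (-0.041) and Creld2 (-0.087) turned below 0.

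The libraries carried the markers of muscle fibres. The 6 myotube markers, which include myogenin, embryonic myosin and skeletal actin, lay between 43.2 and 2273 FPKM, and summed to 2990 FPKM in control, 2836 FPKM in conditioned media and 4223 FPKM with resveratrol. More than any other marker, skeletal actin (Acta1) set that sum, at 1568, 1496 and 2273 FPKM, while creatine kinase (Ckm) was lowest with resveratrol, at 60.8, 56.3 and 43.2 FPKM. The 4 myoblast markers summed to 119, 78.3 and 86.5 FPKM. Of these, Myod1 was highest with resveratrol, at 48.2, 28.2 and 51.7 FPKM, and the others were lowest there: Myf5 at 10.9, 9.23 and 2.69 FPKM, Pax7 at 1.04, 0.699 and 0.271 FPKM and Cdh15 at 59.3, 40.1 and 31.8 FPKM. The 3 fibroblast markers, mostly Col3a1, summed to 1515, 2275 and 1815 FPKM. Of the 3 macrophage markers Ptprc and Adgre1 were listed at 0 in every library, and the endothelial and epithelial markers stayed below 0.4 FPKM. The myotube sum was highest in the library where 9 of the 10 genes were highest, Ckm being the 1 myotube marker that was not, and its part in their values was not tested. In bulk RNA, fewer cells of a type and less RNA per cell cannot be told apart.

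Further genes of the pathway were taken from 6 lists of ER genes, of which 94 of 97 passed the filter. Over these 94 the median log2 ratio of resveratrol over conditioned media was 0.028, close to the 0.025 of all loci. Among loci at or above the mean level of Sdf2l1 the median was 0.061. Ratios above 0 numbered 55 (58.5%), beside 52.5% of all loci and 56.8% at that level. The median of the 94 turned to -0.033 with TPM over loci longer than 200 bases. The authors' deposited table calls 40 of the 94 higher and 19 lower, where it calls 34.1% of all tested loci higher and 29.5% lower, and 39.3% higher among loci at or above the mean level of Sdf2l1. Against control, conditioned media gave 30 ratios above 0 (31.9%) and 64 below, with a median of -0.10 that turned to 0.082 with TPM over all loci. Of all loci 48.7% were above 0 there. At or above the mean level of Sdf2l1 44.1% were, with a median of -0.043. In that comparison the table calls 14 higher and 43 lower, where it calls 25.8% of all tested loci higher and 29.9% lower, and 34.98% lower among loci at or above the mean level of Sdf2l1.

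Among the sensors, Ern1, which encodes IRE1, stood at 8.97 FPKM in control, 9.55 FPKM in conditioned media and 18.6 FPKM with resveratrol, with the last library standing apart (log2 ratio 0.90). Eif2ak3, which encodes PERK, stood at 6.90, 7.18 and 9.42 FPKM. In deposited FPKM Atf6 was highest in control, at 29.4, 24.5 and 23.4 FPKM, as was its paralog Atf6b, at 18.4, 13.9 and 14.2 FPKM. For resveratrol over conditioned media neither is called in the authors' deposited table (q 0.124 and 0.708). Mbtps1, the protease that begins the cleavage of ATF6, was at 37.0, 33.3 and 45.1 FPKM. Of 11 sensor genes that were measured, 8 had ratios above 0 for resveratrol over conditioned media. Their median was 0.036, which turned to -0.022 with TPM over loci longer than 200 bases. The authors' deposited table calls 5 higher and 1 lower, beside 34.1% and 29.5% of all tested loci. The 1 lower was Creb3l1, an ATF6 relative of matrix-secreting cells, at 73.7, 65.8 and 44.4 FPKM, whereas its relative Creb3l2 was higher in both conditioned media libraries, at 13.5, 21.4 and 21.7 FPKM.

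Of 15 lumenal chaperones and BiP cochaperones that were measured, 9 had ratios above 0 for resveratrol over conditioned media (median 0.24). All 9 are called higher in the authors' deposited table and 3 are called lower, beside 34.1% and 29.5% of all tested loci. Dnajb9, a BiP cochaperone induced through XBP1 that in turn restrains IRE1, was at 32.1 FPKM in control, 33.7 FPKM in conditioned media and 98.7 FPKM with resveratrol. With a log2 ratio of 1.52 for resveratrol over conditioned media, it alone of this list passed the size rule in that comparison. In deposited FPKM Dnajb9 was, like Hspa5, nearly level between control and conditioned media. Hyou1, a nucleotide exchange factor of BiP, was at 34.03, 24.2 and 34.1 FPKM, and Dnajc3, whose promoter also holds an ERSE, at 26.4, 20.2 and 29.1 FPKM. Sdf2, the paralog of Sdf2l1, was at 52.4, 39.1 and 65.8 FPKM. In deposited FPKM these 3, like Sdf2l1 and Creld2, were lowest in conditioned media. Cdnf, the paralog of Manf, differed from it, at 1.18, 5.84 and 8.52 FPKM, higher in both conditioned media libraries. Against control it passed the size rule in each of them (log2 ratios 1.65 and 2.13). The peptidyl-prolyl isomerase genes Fkbp2 (42.0, 40.1 and 26.3 FPKM) and Fkbp14 (38.7, 25.6 and 21.1 FPKM) were lowest with resveratrol.

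Disulfide enzymes were mixed. Of 14, 10 had ratios above 0 for resveratrol over conditioned media (median 0.10). The authors' deposited table calls 5 higher and 2 lower, beside 34.1% and 29.5% of all tested loci. Ero1lb (Ero1b in RefSeq), an oxidase that recharges the isomerases, was at 2.29, 2.55 and 7.002 FPKM and passed the size rule (log2 ratio 1.17). Its paralog Ero1l was at 100.0, 185 and 221 FPKM, with most of the difference between control and conditioned media. P4hb, the founding disulfide isomerase, was highest in conditioned media, at 542, 722 and 636 FPKM, and Pdia5 was lowest with resveratrol, at 22.3, 18.6 and 14.3 FPKM.

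In ER-associated degradation, 12 of 17 genes had ratios above 0 for resveratrol over conditioned media (median 0.22). The authors' deposited table calls 10 higher and 3 lower, beside 34.1% and 29.5% of all tested loci. The mannosidase-like Edem3 was at 28.0, 20.5 and 29.2 FPKM, while Edem1, a classic XBP1 target, ran the other way at 20.2, 26.2 and 17.9 FPKM. Vcp, the ATPase that pulls substrates out of the membrane, was at 239, 181 and 223 FPKM.

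The remaining secretory lists had medians near 0 or below it. In resveratrol over conditioned media the authors' deposited table calls 34.1% of all tested loci higher and 29.5% lower. For the calnexin cycle and N-glycosylation, 5 of 14 genes had ratios above 0 in that comparison (median -0.078), with 4 called higher and 6 lower. Alg2, a mannosyltransferase, was at 14.1, 16.4 and 28.9 FPKM, and Uggt2, a glycoprotein folding sensor, at 10.8, 6.69 and 5.98 FPKM. For the translocon and ER-Golgi transport, 11 of 23 had ratios above 0 (median -0.0050), with 7 called higher and 4 lower. In conditioned media over control 20 of these 23 were below 0, with a median of -0.17 that turned to 0.022 with TPM over all loci. There the authors' deposited table calls 1 higher and 14 lower, beside 25.8% and 29.9% of all tested loci. Among loci at or above the mean level of Sdf2l1 it calls 34.98% lower. Sec13 and Sec31a, the outer coat of ER export vesicles, were at 127, 85.6 and 63.8 FPKM and 108, 76.3 and 56.0 FPKM, and Kdelr3, a receptor that returns ER proteins, at 100.1, 104 and 60.7 FPKM.

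**Figure D4:**
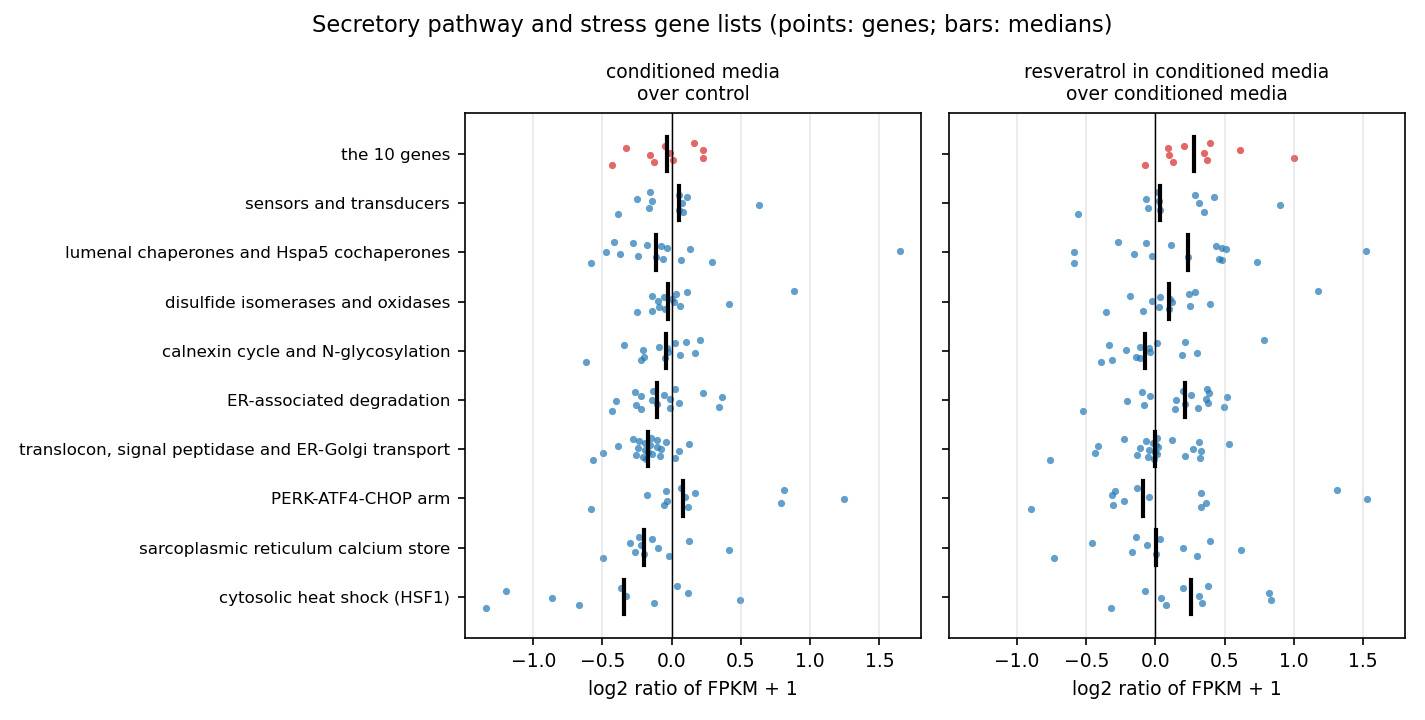
Log2 ratios of FPKM + 1 for the 10 genes (red) and the genes of 9 lists (blue), with black bars for medians, for conditioned media over control (left) and resveratrol over conditioned media (right). In the right panel the median of the 10 genes (0.28) lies highest. Next are the cytosolic heat shock list, which holds mitochondrial members (0.26), lumenal chaperones (0.24) and ER-associated degradation genes (0.22).

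The PERK branch shared genes with larger differences. Ddit3, which encodes CHOP, was at 46.6 FPKM in control, 82.3 FPKM in conditioned media and 239 FPKM with resveratrol, and Atf4 at 271, 239 and 309 FPKM. The 12 genes of this list had a median log2 ratio of -0.091 for resveratrol over conditioned media. The authors' deposited table calls 5 higher and 5 lower, beside 34.1% and 29.5% of all tested loci. Among the 12 genes Cebpb was at 14.1, 14.9 and 38.5 FPKM and Psat1 at 176, 117 and 62.2 FPKM.

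Outside the ER lumen, the 10 measured genes of the cytosolic heat shock list had a median of 0.26 for resveratrol over conditioned media. For conditioned media over control their median was -0.35. The list also holds the mitochondrial chaperones Hspd1 and Hspe1, so these medians are not of cytosolic genes alone. Hspa8, the constitutive cytosolic relative of Hspa5, was at 1229, 536 and 945 FPKM. The median of -0.35 stands beside -0.032 for the 10 ER genes. The 11 measured genes of the sarcoplasmic reticulum calcium store had medians of -0.20 for conditioned media over control, which was -0.0056 with TPM over all loci, and 0.0071 for resveratrol over conditioned media, which turned to -0.054 with TPM over loci longer than 200 bases. Its calsequestrins, the calcium-binding counterparts of Calr in muscle, were at 159, 112 and 173 FPKM (Casq2) and 19.8, 17.9 and 10.4 FPKM (Casq1). In deposited FPKM both were lower in conditioned media than in control (log2 ratios -0.49 and -0.14), though the authors' deposited table does not call Casq1 there (q 0.106). With resveratrol over conditioned media the calsequestrins differed in opposite directions (0.62 and -0.73).

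Genes with an ERSE had ratios on either side of 0 with resveratrol. Among the 9 genes with a promoter entry, the 5 with an ERSE had log2 ratios of resveratrol over conditioned media from 0.091 (Hsp90b1) to 0.61 (Hspa5). Without an ERSE in this window, Sdf2l1 had 0.999, Pdia4 0.35, Herpud1, which holds an ERSE-II, 0.13 and Xbp1 -0.078. Hsp90b1, with 2 elements, had the smallest ratio of the 5. Over all RefSeq promoters, 37 genes have a promoter with an ERSE, and 16 of them passed the level filter. Of the 11 that are not among the 10 genes, 4 had ratios above 0 (median -0.027). Of these 11, 9 were tested in the authors' deposited table, with 2 called higher and 4 lower, beside 34.1% and 29.5% of all tested loci. The 11 include Dnajc3 and Ero1lb, which were higher with resveratrol. Syvn1, an ER ubiquitin ligase, was at 18.7, 19.0 and 21.1 FPKM, a difference with resveratrol that the authors' deposited table does not call (q 0.0650). Ratios of 7 of the 11 were below 0. The lowest were those of Hnrnpa3 (354, 290 and 182 FPKM, log2 ratio -0.67) and Zfp57 (6.78, 5.02 and 2.86 FPKM, log2 ratio -0.64). Pdia6, an isomerase at 172, 180 and 176 FPKM, was slightly below 0.

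In deposited FPKM other genes shared the pattern of Hspa5, nearly level in the first pair of libraries and higher in the third. Over 11010 named genes, 112 lay within a distance of 0.1 of it in the plane of the 2 log2 ratios (conditioned media over control and resveratrol over conditioned media). The same count was not made around another gene, so whether 112 is many or few is not known. The 5 nearest over these 3 libraries were Pik3c3 (9.47, 9.22 and 14.5 FPKM, distance 0.023), Gins4 (13.4, 13.4 and 20.6 FPKM, distance 0.024), Znrf2 (12.7, 12.7 and 19.6 FPKM, distance 0.026), Metrn (10.5, 10.6 and 16.5 FPKM, distance 0.026) and Gmpr (1.46, 1.48 and 2.73 FPKM, distance 0.034). Distances rest on ratios of FPKM + 1, which understate the differences of low genes. Gmpr, close to the level filter, is near for that reason, and its FPKM ratio of resveratrol over conditioned media is larger than that of Hspa5. The count of 112 can hold other low genes of this kind.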

How the data were processed

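Expression was analysed in 3 libraries of C2C12 myotubes, grouped by their treatment labels. Per the submitters' processing notes, Cuffdiff 2.2.1.3 and Cufflinks 2.2.1.0 were used with the aligner TopHat2 2.1.0 and Bowtie on mm10, beside Trim Galore 0.4.3.1 and FastQC 0.69. Which annotation, strand setting and scaling of libraries were used is not given in the sources here. The deposited table holds the authors' FPKM, their log2 fold change without a pseudocount, a test statistic (the authors' score), and p-values and q-values, per the file headers. Cuffdiff's calls, at q up to 0.05, compare 2 libraries, not conditions. Read depth is unknown from FPKM, so counting intervals could not be given.

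Log2 ratios of FPKM + 1 and medians were computed with Python 3.11.15 and pandas 2.3.3, and tested on simulated data. The size rule needs a log2 ratio of at least 1 in either direction, a mean of at least 1 FPKM, and a status of tested or too low to test. The level and status filters left 11858 loci. Text names the 10 genes, the 3 genes of each list with the largest ratio in each of the first 2 comparisons (a selection of them is printed), 5 fixed regulators and the 5 genes nearest to Hspa5. Genes that illustrate paralogs or carry an ERSE (Dnajc3, Syvn1, Pdia6, Hnrnpa3 and Zfp57) were added after their values were seen. Hspd1 and Hspe1 are named for their mitochondrial location alone. Members and lists were chosen with earlier results of these data known, and the motif search was added later. Hspa1a and Hspa1b share 1 locus, Mbtps2 shares one with Yy2, and none of these was matched. A gene that the naming rule picks is not reported here.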

Additional observations from a re-analysis of the deposited data

How the results depend on the processing

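Results were recomputed under 10 alternatives. The 9 ratios above 0 for resveratrol over conditioned media held under all of them. Most of them could not have changed that count. Centring on the median of all loci and TPM over all loci shift this comparison by less than the smallest ratio above 0 (Hsp90b1, 0.091). TPM over loci longer than 200 bases came nearest, with Hsp90b1 at 0.029. The number of the 10 genes past the size rule in that comparison was 1 at a pseudocount of 0.1 and 2 at a threshold of 0.5, which also gave 2 for resveratrol over control, against 0 as reported. By the authors' deposited calls it was 9, with 8 for resveratrol over control and 3 higher and 3 lower for conditioned media over control. Rescaling to TPM over all loci gave a median of 0.16 and 8 ratios above 0 for conditioned media over control, with Hspa5 at 0.18, Pdia4 at 0.14, Manf at 0.062 and Calr at 0.041, and a median of 0.45 for resveratrol over control. TPM over loci longer than 200 bases gave a median of 0.12 and 6 ratios above 0 for resveratrol over control, with Xbp1 at -0.0014, Calr at -0.10, Canx at -0.041 and Creld2 at -0.087. No paired analysis was possible because each group holds 1 library, and for the same reason no library could be left out. Depth is unknown, so the precision of low genes such as Sdf2l1 could not be computed.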
